A study of Mus musculus with 6 samples.

Results

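The glucagon and secretin family is a set of related gut and nerve peptides with their class B G protein-coupled receptors. It was followed here through 10 genes chosen by name, 4 hormone genes (Gcg, Gip, Sct and Vip) and 6 receptor genes (Glp1r, Glp2r, Gcgr, Gipr, Sctr and Vipr1). Of these 10, 9 were measured by 10 probe sets, out of 18193 genes and 45101 probe sets on the array. Glp2r, the receptor of glucagon-like peptide 2, is not analysed here. Where a gene had more than 1 probe set, the one with the highest mean over all arrays stands for it.

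Total RNA was measured on 6 Affymetrix mouse arrays. In 3 samples the cells were fluorescent intestinal cells (CCK-EGFP cells), and in the other 3 they were an equal number of intestinal cells without fluorescence (non-EGFP cells). All samples came from adult Swiss Webster mice that carry the CCK-EGFP transgene, in which enhanced green fluorescent protein marks cells that express cholecystokinin, so the non-EGFP cells carry the transgene too. The labels give neither the stretch of intestine, nor the number of mice behind a sample, nor the promoter fragment that drives EGFP, nor whether replicates are separate animals. The p-values therefore measure only how far these samples spread, possibly for technical reasons, and having 3 arrays a group limits the precision. In a sorted pool, fewer cells of a type and less RNA per cell cannot be told apart, nor can several hormones in the same cell be told from a mixture of cells.

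Hormones of this family are made as longer precursors, cut by prohormone convertases in secretory granules and released by enteroendocrine cells. Gcg encodes proglucagon, which intestinal L cells process to glucagon-like peptides 1 and 2. Gip encodes the incretin of K cells, and Sct encodes secretin, the S cell hormone that drives bicarbonate secretion. Vip encodes a neuropeptide of enteric neurons. Their receptors act mainly through the stimulatory G protein and cyclic AMP.

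Values are log2 intensities from RMA, on which 1 unit is a doubling. Olfactory and vomeronasal receptor genes, 71 in number, served as a measure of background, and the 95th percentile of their means, 4.60, is called the background level. The median over an array lay between 5.66 and 5.72 for CCK-EGFP cells and between 5.37 and 5.55 for the other group. Cck, the gene of the sort, stood at 13.16 ± 0.32 (SD, n = 3) against 8.63 ± 0.27. All 8 measured enteroendocrine markers (Chga, Chgb, Scg2, Scg3, Syp, Pcsk1, Neurod1 and Tph1) were higher in CCK-EGFP cells, with a median log2 difference of 4.30. The labels describe both groups as enteroendocrine. By group mean, non-EGFP cells also held all 8 above the background level, beside all 9 measured enterocyte markers. Syp read 4.44 on non-EGFP replicate 1, below that level. The log2 differences of its 2 probe sets were -0.21 and 6.45.

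Of the 9 measured family genes, 4 were higher in CCK-EGFP cells (Gcg, Gip, Sct and Glp1r), 2 were lower (Vipr1 and Sctr) and 3 did not pass the test (Vip, Gcgr and Gipr). The test was limma with Benjamini-Hochberg adjustment over all genes and a threshold of 0.05. Of all genes, 14.0% were higher and 10.2% lower by the same test. The median log2 difference was 0.41 over the 9 family genes and -0.17 over all genes. After centring every array on its own median, the calls over all genes were 2101 higher and 3605 lower, against 2540 and 1851 as deposited. The family counts were 4 and 2 under both scalings. Means were above the background level in both groups for 5 of the 9 genes, in CCK-EGFP cells only for Glp1r, and in neither group for Vip, Gipr and Sctr.

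**Figure D1:**
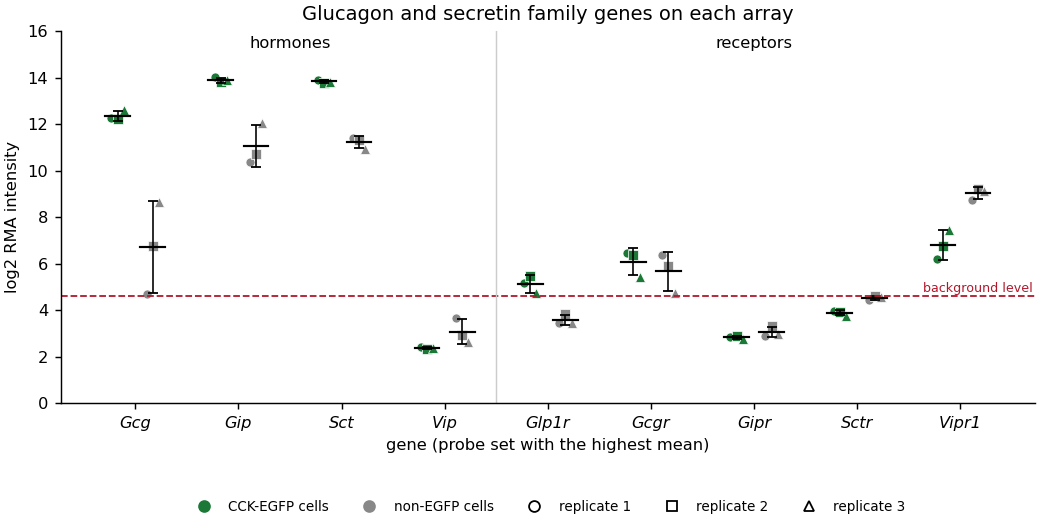
Log2 RMA intensity (vertical axis) of the 9 measured genes (horizontal axis) on each array, with green symbols for CCK-EGFP and grey for non-EGFP cells, symbol shapes for the replicate number, and black bars for the mean and SD of 3 arrays. Gcg, Gip and Sct lie above 12 on the CCK-EGFP arrays, Gcg spreads from 4.70 to 8.66 on the non-EGFP arrays, and Vip, Gipr and Sctr have group means under the dashed background level of 4.60.

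Gcg showed the largest difference of the family. Its log2 intensity was 12.25, 12.23 and 12.61 in the CCK-EGFP replicates 1 to 3, against 4.70, 6.74 and 8.66 in non-EGFP replicates 1 to 3, the order kept below. The CCK-EGFP arrays were alike, every one lay above every non-EGFP array, and the lowest non-EGFP array was at about the background level. The means were 12.36 ± 0.21 (SD, n = 3) and 6.70 ± 1.98, a log2 difference of 5.66 (SE 0.91, 95% confidence interval 3.47 to 7.85, limma adjusted p = 0.00813). Of all genes, 73 had a larger positive difference. The difference rested in size on the non-EGFP arrays, at 6.64 without non-EGFP replicate 3 and 4.66 without non-EGFP replicate 1, and the gene passed the test in both cases (limma adjusted p = 0.00316 and 0.00709).

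Gip was abundant in both groups. It stood at 14.01, 13.80 and 13.89 in CCK-EGFP cells, against 10.39, 10.71 and 12.07 in the non-EGFP samples. The groups did not overlap, and the highest non-EGFP array was again replicate 3. The log2 difference was 2.84 (SE 0.44, 95% confidence interval 1.79 to 3.90, limma adjusted p = 0.00693), or 7.18-fold.

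Sct had the tightest values of the 3 higher hormones. It read 13.91, 13.79 and 13.83 in CCK-EGFP cells, against 11.39, 11.34 and 10.92 without EGFP. Here non-EGFP replicate 3 was the lowest of its group, where it had been the highest for Gcg and Gip. The log2 difference was 2.63 (SE 0.20, 95% confidence interval 2.15 to 3.11, limma adjusted p = 0.000537), or 6.19-fold. Gip and Sct lay within 1 unit of the array maxima of 14.7 to 14.8 in CCK-EGFP cells, where saturation can shrink a difference.

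The 3 hormones differed in how evenly they were spread among the non-fluorescent samples. Over the non-EGFP arrays Gcg spanned 3.96, Gip 1.69 and Sct 0.47 log2 units, while over the CCK-EGFP arrays they spanned 0.38, 0.22 and 0.12. The SD of Gcg among non-EGFP arrays was above that of 99.2% of all genes. The single enteroendocrine markers had SDs from 0.045 (Chgb) to 1.08 (Pcsk1) over the same arrays, against 1.98 for Gcg, and their mean log2 level was 8.21, 8.43 and 8.18 on replicates 1, 2 and 3. Pcsk1 was lowest on replicate 3, where Gcg was highest. Pyy, the gene of another L cell peptide, singled out after its values were seen, read 9.65, 9.23 and 9.52 on the same arrays.

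**Figure D2:**
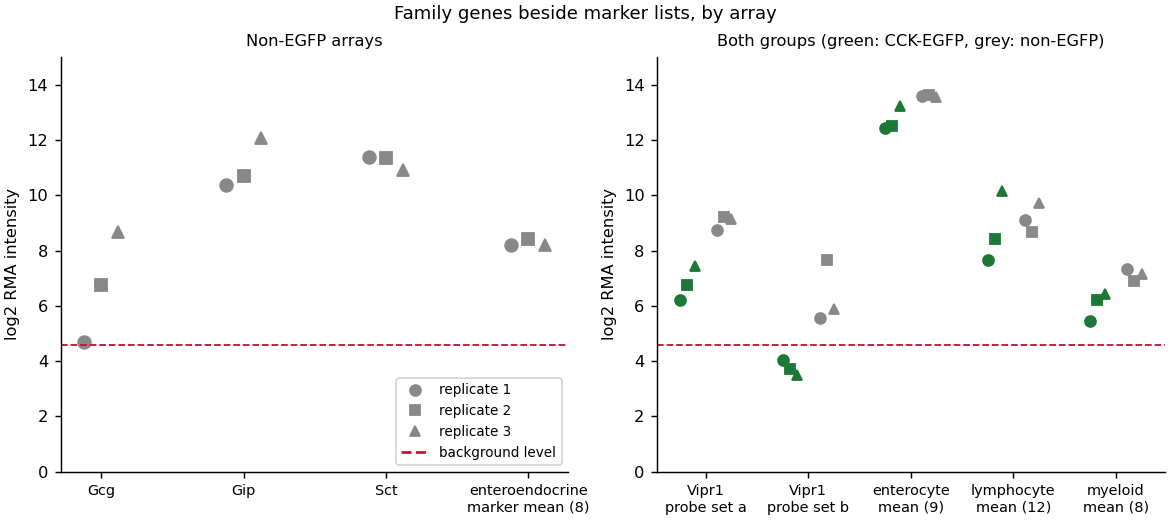
Log2 RMA intensity (vertical axes) by array, with symbol shapes for the replicate number. On the left, Gcg and Gip on the non-EGFP arrays were highest on replicate 3, while Sct was lowest there; the mean of 8 enteroendocrine markers is drawn beside them, and a mean of several genes spreads less than a single gene. On the right, both probe sets of Vipr1 are lower in CCK-EGFP cells (green) than in non-EGFP cells (grey), beside the means of enterocyte, lymphocyte and myeloid markers.

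Whether the hormones changed unequally was asked with the within-array log2 difference of each pair. The change of Gcg exceeded that of Gip by 2.82 (SE 0.70) and that of Sct by 3.03 (SE 1.29). For both pairs the exact two-sided permutation test gave p = 0.1, the smallest that 3 against 3 arrays allow (0.15 after Benjamini-Hochberg adjustment over 3 pairs). The changes of Gip and Sct differed by 0.22 (SE 0.67, exact permutation p = 0.9, adjusted 0.9). The exact test cannot place these inequalities past the threshold at this number of arrays, and no model-based test of them was run.

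Vip, the 4th hormone gene, had no level above background. It read 2.40, 2.34 and 2.37 in CCK-EGFP cells, against 3.68, 2.92 and 2.64 without EGFP. All CCK-EGFP arrays were lower, but both means were below the background level and the difference did not pass (-0.71, SE 0.29, limma adjusted p = 0.122). Of 13 measured enteric neuron and glia markers 6 were higher in CCK-EGFP cells, Elavl3, Uchl1, Nefl, Nefm, Ret and Gfap, and 0 were lower. Over all genes 14.0% were higher and 10.2% lower. Gfap, a glial gene, was only at least 1.07-fold higher against background, its probe sets ran from -0.40 to 1.25, and its call ended without CCK-EGFP replicate 1 or 2 (limma adjusted p up to 0.0655). Among the uncalled genes, Sox10 (-0.92), Nos1 (-0.75), Elavl4 (-0.68) and S100b (-0.61) had every CCK-EGFP array below every non-EGFP array. Chat (0.76) and Tubb3 (0.71), also uncalled, had every CCK-EGFP array above every non-EGFP array. Probe sets ran from -0.61 to 4.55 for Elavl3 and from -0.68 to 1.02 for Elavl4. The mean level of the list was 5.78 to 6.24 with EGFP and 4.11 to 4.56 without. Chat, the enzyme of acetylcholine synthesis in enteric neurons, was below the background level in both groups.

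The upstream sequences of the 3 higher hormone genes are shown because these genes differed between the groups in the same direction. Each is the 250 bases before the start in a RefSeq promoter table (GRCm38.p6), 5′ to 3′ on the gene's own strand. Capitals mark the E-box CANNTG, the motif of basic helix-loop-helix factors such as Neurod1, and the TATA box TATAAA on either strand.
Gcg: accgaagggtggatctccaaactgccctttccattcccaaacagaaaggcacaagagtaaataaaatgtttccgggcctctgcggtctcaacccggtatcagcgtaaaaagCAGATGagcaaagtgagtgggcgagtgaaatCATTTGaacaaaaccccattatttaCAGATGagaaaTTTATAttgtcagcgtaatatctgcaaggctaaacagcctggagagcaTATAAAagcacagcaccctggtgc
Gip: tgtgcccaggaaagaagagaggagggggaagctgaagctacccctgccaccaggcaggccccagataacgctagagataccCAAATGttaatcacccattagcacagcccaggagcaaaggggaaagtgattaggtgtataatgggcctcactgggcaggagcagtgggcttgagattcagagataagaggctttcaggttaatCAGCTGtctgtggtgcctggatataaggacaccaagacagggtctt
Sct: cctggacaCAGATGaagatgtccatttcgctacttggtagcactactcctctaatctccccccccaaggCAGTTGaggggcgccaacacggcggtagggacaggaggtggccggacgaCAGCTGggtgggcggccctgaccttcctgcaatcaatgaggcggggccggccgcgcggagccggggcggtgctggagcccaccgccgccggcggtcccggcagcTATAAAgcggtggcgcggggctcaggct
The Gcg stretch lies at chr2:62483654-62483903 on the minus strand, the Gip stretch at chr11:96024295-96024544 on the plus strand and the Sct stretch at chr7:141279134-141279383 on the minus strand. The RefSeq gene span begins 13 bases further upstream than the table's start for Gip and 41 bases further for Sct.

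The windows held 3 E-boxes for Gcg, 2 for Gip and 3 for Sct. Of 32851 promoters in the table, 66.2% hold at least 1 CANNTG in the same window, so its presence is common. TATAAA, which 12.4% of promoters hold, begins 24 bases before the start in Gcg and 28 bases before it in Sct, with a further match on the opposite strand of Gcg at 72 bases. TTTATN (37.2% of promoters) was searched as a Cdx-type motif. Each TATAAA is also a TTTATN match on the other strand, and Gcg has 1 more, at 191 bases. TGACG (17.8%), the core of the cyclic AMP response element, and TAATTA (4.84%), a homeodomain core, have no match in these 3 windows. Both strands were searched, and a match is only a description of letters. The Vip window held 3 TATAAA, 0 E-boxes and 1 TGACG, at 79 bases. The windows had a GC content of 44.8% for Gcg, 52.0% for Gip and 68.0% for Sct, against a median of 52.4% over all promoters.

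Among the receptors, Glp1r, the receptor of glucagon-like peptide 1 and the target of incretin drugs, was higher in CCK-EGFP cells at a low level. It read 5.19, 5.49 and 4.73 in CCK-EGFP cells, against 3.45, 3.82 and 3.46 without EGFP. Every CCK-EGFP array lay above the background level and every non-EGFP array below it. The fitted log2 difference was 1.56 (SE 0.25, 95% confidence interval 0.95 to 2.17, limma adjusted p = 0.00848). Set against background, Glp1r was at least 1.45-fold higher. With the 99th percentile of the olfactory and vomeronasal genes, 5.35, as the level, both means were below it and no fold can be given.

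Vipr1, the receptor of vasoactive intestinal peptide on epithelial and immune cells, was lower in CCK-EGFP cells on both of its probe sets. The brighter read 6.20, 6.77 and 7.45 in CCK-EGFP cells, against 8.74, 9.22 and 9.13 without EGFP. The groups did not overlap, and the log2 difference was -2.22 (SE 0.35, 95% confidence interval -3.05 to -1.39, limma adjusted p = 0.00714). The dimmer probe set read 4.06, 3.71 and 3.50 against 5.58, 7.65 and 5.90, so its CCK-EGFP arrays were all below the background level. Tested with all probe sets of the array, where 7.29% were lower, it differed by -2.62 (SE 0.54, limma adjusted p = 0.0231), and set against background the dimmer probe set was at least 3.42-fold lower.

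The spread of Vipr1 within CCK-EGFP cells was wide, with an SD of 0.63 above that of 86.2% of all genes. The brighter probe set was highest on CCK-EGFP replicate 3. The dimmer one was lowest there, but it was below the background level on every CCK-EGFP array, so that its order there has no meaning. Markers of other cell types moved on these arrays as well. The mean of 9 enterocyte markers was 12.44, 12.50 and 13.24 on CCK-EGFP replicates 1, 2 and 3 and 13.56 to 13.62 on the non-EGFP arrays. Of those markers 3 were lower, Slc5a1, Mttp and Treh, and 0 were higher, where 10.2% of all genes were lower and 14.0% higher. With the replicate number as a block Mttp and Treh did not pass (limma adjusted p = 0.0550 and 0.0527), and leaving out any array but CCK-EGFP replicate 3 ended all 3 calls (limma adjusted p up to 0.131). The mean of 12 lymphocyte markers was 7.67, 8.44 and 10.17 with EGFP and 8.67 to 9.71 without, with 0 of 12 called in either direction. The mean of 8 myeloid markers was 5.44 to 6.42 against 6.90 to 7.33, with C1qb and Cd14 lower and 0 higher. Their part in the difference of Vipr1 was not tested.

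Sctr, the secretin receptor, was called lower, but between means that were both below the background level. It read 3.98, 3.93 and 3.77 in CCK-EGFP cells, against 4.46, 4.63 and 4.55 without EGFP. Only non-EGFP replicate 2 passed the background level. The log2 difference was -0.65 (SE 0.17, limma adjusted p = 0.0392). Leaving out 1 array ended the call for each of the 6 arrays (limma adjusted p = 0.0597 to 0.118) and with the replicate number as a block (0.0729).

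Gcgr, the glucagon receptor of liver and islets, overlapped between the groups. It read 6.48, 6.38 and 5.41 in CCK-EGFP cells, against 6.40, 5.89 and 4.75 without EGFP. In both groups replicate 3 was the lowest. The log2 difference was 0.41 (SE 0.49, 95% confidence interval -0.77 to 1.59, limma adjusted p = 0.543), and with the replicate number as a block the adjusted p was 0.208. The interval allows a change of more than a doubling as well as a fall.

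Gipr, the GIP receptor, was below the background level on every array. It read 2.86, 2.88 and 2.77 in CCK-EGFP cells, against 2.89, 3.30 and 3.0 without EGFP. The difference did not pass (-0.23, SE 0.19, 95% confidence interval -0.68 to 0.23, limma adjusted p = 0.388).

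**Figure D3:**
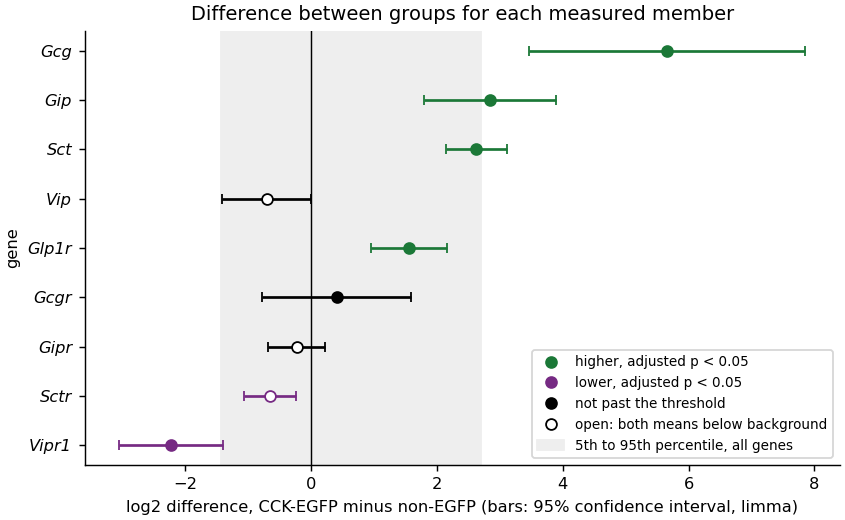
Log2 difference of CCK-EGFP minus non-EGFP cells (horizontal axis) for each measured gene (vertical axis), with 95% confidence intervals from limma, and the 5th to 95th percentile of all genes, -1.42 to 2.70, in grey. Gcg and Gip lie right of the grey band at 5.66 and 2.84 and Vipr1 left of it at -2.22, and open symbols mark the 3 genes with both means below the background level.

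Non-overlapping groups were common on these arrays and are no result about the family alone. Of all genes, 21.8% had every CCK-EGFP array above every non-EGFP array and 28.1% the reverse. In the family 4 of 9 genes were of the first kind and 4 of the second, and Gcgr alone overlapped. The 4 of the second kind include Vip and Gipr, which did not pass the test.

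The other genes of the family stayed near background. Adcyap1, the gene of the neuropeptide PACAP, Ghrh, the growth hormone releasing hormone, and Vipr2, the other receptor of vasoactive intestinal peptide, had means below the background level in both groups. Adcyap1r1, the PACAP receptor, stood at 4.51 ± 0.19, below that level, in CCK-EGFP cells and at 5.0 ± 0.18 without EGFP, and Ghrhr, the receptor of growth hormone releasing hormone, at 4.60 ± 0.27 and 5.28 ± 0.30. Of the 5, 0 passed limma with adjustment over all genes, with log2 differences from -0.67 to -0.26. At an unadjusted p under 0.05 there were 3 (Ghrh, Adcyap1r1 and Ghrhr). By the same unadjusted threshold 21.0% of all genes were lower. These 3 passed after median centring (limma adjusted p = 0.0433, 0.0439 and 0.0441), which moves every gene down alike, the median of all genes from -0.17 to -0.42.

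Genes that turn prohormones into peptides were higher with the hormones. Of 8 measured, 6 were higher, 1 was lower and 1 did not pass, with a median log2 difference of 3.79 against -0.17 over all genes. The shares over all genes were 14.0% higher and 10.2% lower. Pcsk1, the convertase that cuts proglucagon to glucagon-like peptide 1 in L cells, read 12.28, 12.52 and 11.28 in CCK-EGFP cells against 8.11, 8.50 and 6.47 (log2 difference 4.34, SE 0.59, limma adjusted p = 0.00464). Its inhibitor precursor Pcsk1n was higher by 5.54 and Scg5, the chaperone of the related convertase 2, by 5.16. Carboxypeptidase E, Cpe, which trims the basic residues left by the convertases, was higher by 3.24 on its brighter probe set and 1.01 on the other. Pam, which amidates the C-terminus of peptides such as secretin, was higher by 2.20 (limma adjusted p = 0.00297). Qpct, which cyclises N-terminal glutamine, was higher by 5.66, from 4.61 ± 1.08 to 10.27 ± 0.33. On the non-EGFP arrays Qpct read 4.27, 3.75 and 5.82, so only replicate 3 was above background there.

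Of the convertases Pcsk5 and Furin, 1 was lower and 1 did not pass. Pcsk5 was lower, at 9.41 ± 0.93 against 11.61 ± 0.04 (log2 difference -2.21, SE 0.45, limma adjusted p = 0.0173), with all 5 of its probe sets between -2.48 and -1.41. Its CCK-EGFP values were 8.65, 9.14 and 10.44, and the call ended without CCK-EGFP replicate 2 (limma adjusted p = 0.0701) or non-EGFP replicate 2 (0.0508). Furin stood at 12.31 ± 0.19 and 12.53 ± 0.13 (limma adjusted p = 0.402).

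Of 6 peptidases listed as candidates for breaking these hormones down, 1 was higher, 1 was lower and 4 did not pass. Their median log2 difference was -0.25, and their action on the hormones was not measured. These counts are near the shares over all genes, 14.0% higher and 10.2% lower. Dpp4, the enzyme that inactivates glucagon-like peptide 1 and GIP, was abundant in both groups, at 12.15, 12.51 and 12.88 with EGFP and 12.71, 13.06 and 13.13 without. The groups overlapped and the difference did not pass (-0.45, 95% confidence interval -1.05 to 0.16, limma adjusted p = 0.22). Mme, the brush border endopeptidase neprilysin, was lower by -2.42 (SE 0.56, limma adjusted p = 0.0253). It read 8.08, 7.94 and 10.02 on the CCK-EGFP arrays, highest on replicate 3, where the enterocyte markers were also highest. Leaving out CCK-EGFP replicate 3 kept its call, and leaving out each of the other 5 arrays ended it (limma adjusted p up to 0.0864). Ece1, an endothelin-converting enzyme, was higher by 2.04 (SE 0.24, limma adjusted p = 0.00284), with probe sets from 0.16 to 2.04. Fap (-1.75, limma adjusted p = 0.0781), Dpp8 (0.65, 0.0735) and Dpp9 (-0.05, 0.894) did not pass. Probe sets ran from -0.52 to 0.65 for Dpp8 and from -1.14 to -0.19 for Dpp4.

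Receptor partners and genes of cyclic AMP signalling were called higher in 7 of 22 cases and lower in 1, with a median log2 difference of 0.50. Over all genes the shares were 14.0% higher and 10.2% lower. Prkar1b, a regulatory subunit of protein kinase A, was higher by 4.88 (SE 0.52, limma adjusted p = 0.00179), with probe sets from 0.21 to 4.88. Adcy8, a calcium-stimulated adenylyl cyclase, was at least 11.3-fold higher against the background level, and its call ended without CCK-EGFP replicate 1 (limma adjusted p = 0.0512). Ramp2, an accessory protein of class B receptors, read 6.89, 8.50 and 6.99 against 4.51, 3.51 and 4.77 and was at least 7.27-fold higher against that level (limma adjusted p = 0.00892). Pde3b, a cyclic AMP phosphodiesterase, was higher by 2.64, a call that ended without CCK-EGFP replicate 2 (limma adjusted p = 0.0554). The lower gene was Arrb1, the beta-arrestin that binds activated receptors (-1.23, limma adjusted p = 0.0156). Its call ended without CCK-EGFP replicate 1 (limma adjusted p = 0.0599) or 2 (0.0676). Prkar2a (0.01) and the catalytic subunit Prkaca (0.63) did not pass (limma adjusted p = 0.972 and 0.09). Probe sets of Prkar2a ran from -0.56 to 0.49.

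Transcription factors known from the control of Gcg, Gip and Sct were higher in 7 of 16 measured cases and lower in 2, with a median log2 difference of 1.84. Over all genes 14.0% were higher and 10.2% lower. Isl1, a LIM homeodomain factor, rose by 6.15 from 6.42 ± 1.00 to 12.57 ± 0.11 (limma adjusted p = 0.000594). Pax6, a paired-box factor of the Gcg promoter, rose by 5.98 on its brightest probe set, and its 5 probe sets ran from -0.25 to 5.98. Nkx2-2 rose by 5.83 and Neurod1, an E-box factor, by 4.26 (limma adjusted p = 0.00103 and 0.000104). On non-EGFP replicates 1, 2 and 3 Neurod1 read 8.30, 8.55 and 8.33, while Nkx2-2 read 3.69, 4.97 and 5.90, Pax6 4.59, 3.92 and 6.44 and Isl1 6.87, 5.27 and 7.12. The spread among these arrays was thus wide for 3 of these 4 factors. Pax6 on replicates 1 and 2 and Nkx2-2 on replicate 1 were below the background level, so the size of their spread is uncertain. Isl1 was above that level on every non-EGFP array. With the 99th percentile of the olfactory and vomeronasal genes as the level, the non-EGFP means of Pax6 and Nkx2-2 were below it. Against that level Pax6 was at least 49.0-fold and Nkx2-2 at least 40.3-fold higher. The lower genes were Tcf7l2, an effector of Wnt signalling (-1.08, limma adjusted p = 0.0277), and Gata6 (-1.03, 0.0303). The call of Tcf7l2 ended without replicate 1 or 2 of CCK-EGFP cells, and without replicate 1 or 3 of non-EGFP cells (limma adjusted p up to 0.0973). That of Gata6 ended without any array other than non-EGFP replicate 3 (limma adjusted p up to 0.104) and with the replicate number as a block (0.0545). Hnf4a (12.80 ± 0.05 and 12.98 ± 0.07) and the intestinal factor Cdx2 (12.84 ± 0.09 and 12.06 ± 0.56) did not pass (limma adjusted p = 0.45 and 0.107). These values are from the brightest probe set, and log2 differences ran from -2.26 to -0.17 over the probe sets of Hnf4a. Those of Cdx2 ran from 0.01 to 0.77.

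**Figure D4:**
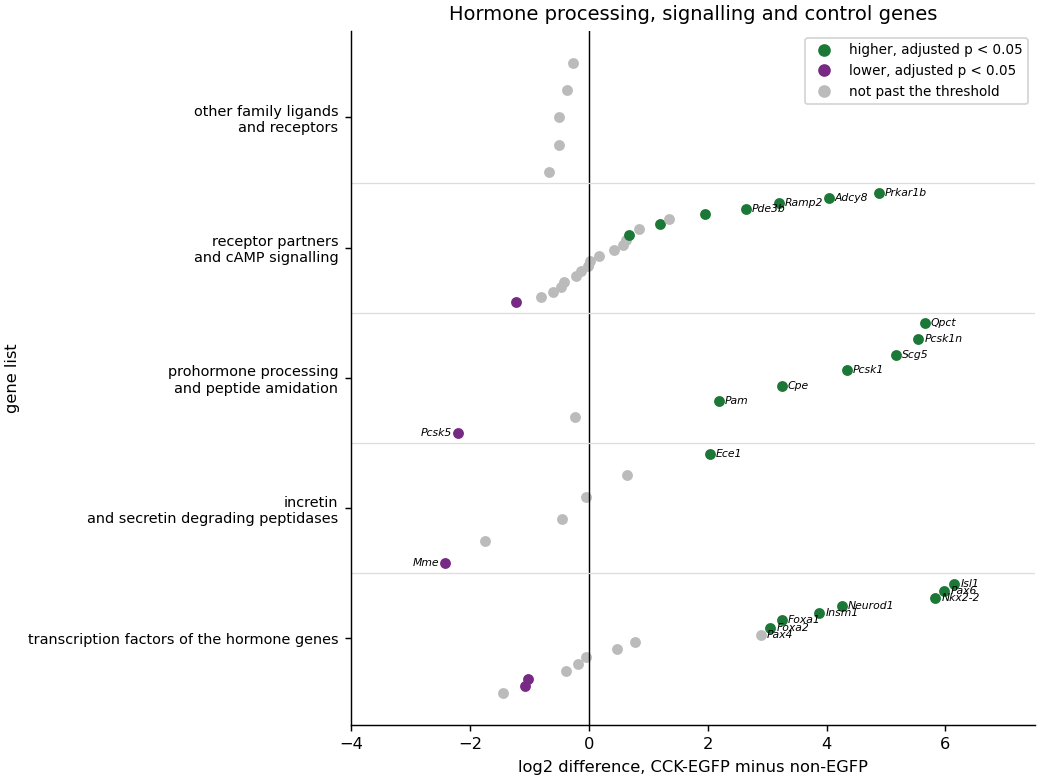
Log2 difference of CCK-EGFP minus non-EGFP cells (horizontal axis) for each measured gene of 5 lists (vertical axis), coloured by whether it passed limma at an adjusted p under 0.05. Names are given where the difference exceeded 2 in size, and 6 of 8 processing genes lie to the right, while the 5 other family genes lie between -0.67 and -0.26.

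Markers of other tissues with family genes were also examined. Of 5 measured pancreatic islet markers, 1 was higher, Iapp, and 0 were lower, with mean levels of 6.05 to 6.88 and 6.06 to 6.65. Of 12 stromal, muscle and endothelial markers, 1 was lower, Des, 0 were higher and 8 had both means below the background level. Over all genes 14.0% were higher and 10.2% lower. The call of Iapp ended without CCK-EGFP replicate 1 or 2 (limma adjusted p up to 0.0579). That of Des ended with the replicate block (limma adjusted p = 0.0596) and without any array but non-EGFP replicate 3 (up to 0.132).

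Patterns over the 6 arrays were compared by Pearson's r across the 12975 genes with a mean above the background level, as a description dominated by the group difference. The closest to Gcg were Klhl42 (r = 0.9992), Gtf2i (0.9990) and Anp32e (0.9987). Like Gcg they were highest among non-EGFP arrays on replicate 3, which follows from choosing them by r. The closest to Gip were Man2a2 (0.9995), Kif5c (0.9994) and Nmt2 (0.9991). Kif5c was below the background level on non-EGFP replicates 1 and 2 (3.06 and 3.80). The closest to Sct were Pnmal2 (0.9995), Abca5 (0.9991) and Smarca1 (0.9990), of which Abca5 and Smarca1 were below the background level on every non-EGFP array, so that their order there has no meaning.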

How the data were processed

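RNA of sorted cells was amplified from picogram amounts and labelled with biotin, per the labels' protocols. The authors deposited 1 table of log2 values, made with RMA per the submitters' processing notes (background correction, quantile normalization and summary of each probe set). Its settings are not stated in the labels. RMA gives no detection call, and amplification can add variation at low levels.

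The platform annotation gave the gene names, some perhaps outdated: 34945 probe sets had 1 gene symbol, 932 several and 9160 were not listed. RefSeq gene identifiers matched 34741 and changed 0 symbols. Upstream sequences were found for 8 of the 10 family genes. No per-sample column was unmapped.

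Groups were compared over all 18193 genes with limma 3.58.1 in R 4.3.3 (lmFit, eBayes, two-sided, Benjamini-Hochberg), checked on simulated data. Tables used Python 3.11.15 with pandas 2.3.3, scipy 1.17.1 and matplotlib 3.10.9. A fold against a group below the background level is a lower bound. The family and its lists were chosen with earlier results of these data known. Named are all family, processing and peptidase genes, up to 4 called genes in each direction and 2 uncalled ones of the signalling and transcription factor lists, and the 3 genes closest in pattern to each higher hormone. Gnas, Prkacb and Prkar1a are named as well, to give how far their calls held. Genes of the lists without a probe set are not analysed here.

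Replicate numbers 1 to 3 recur in both groups, and the labels do not explain them. Deviations from group means, across genes, correlated at 0.270, 0.159 and 0.219 for same-numbered arrays and at -0.245 to -0.0109 otherwise, so arrays were treated as paired by number in the alternative with a replicate block. Alternatives are given in the closing section.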

Additional observations from a re-analysis of the deposited data

How the results depend on the processing

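Family genes called higher numbered 4 under every alternative run but the filter to genes above the background level, which leaves out Glp1r and gave 3. The count of lower genes fell from 2 to 1, through Sctr alone, with each probe set tested alone (1), the replicate block (1), trend and robust eBayes (1), a second quantile normalization (1), and the filters on dim genes, which leave Sctr out (1 with genes above the background level, 1 with the lowest 25% left out). Leaving out 1 array gave 4 higher and 1 to 1 lower. With the replicate number as a block (arrays paired by number), 2340 genes were higher and 1534 lower; among family genes it changed no call other than that of Sctr. Over all genes, testing each of 45037 probe sets gave 3981 higher and 3285 lower, and centring each array on its median gave 3605 lower, moving the median difference of all genes from -0.17 to -0.42. Leaving out 1 array gave 1365 to 2486 higher and 505 to 1962 lower; higher calls were 1365 and 1468 without CCK-EGFP replicate 2 and 1, and lower calls were 505, 666, 880 and 1021 without CCK-EGFP replicate 2, CCK-EGFP replicate 1, non-EGFP replicate 2 and non-EGFP replicate 1, with fewer samples fitted. Refits of single family genes kept their side of the threshold in 118 cases and lost it in 10, all of Sctr. The sign changed for Gcgr, to -0.05 without non-EGFP replicate 3, and for Gipr, to 0.01 with a second quantile normalization; neither passed the test. Levels near background limit what can be said of Vip, Gipr and Sctr.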
